A study of Homo sapiens with 24 samples.

Results

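The genes described are 10 immediate early genes of the EGR, IER and DUSP families: EGR1, EGR2, EGR3, IER2, IER3, IER5, DUSP2, DUSP4, DUSP5 and DUSP6. They were chosen by name, with earlier results of these data known. Their values were read from the transcript clusters (the probe sets that stand for a transcript locus) to which the array's annotation gives that symbol alone. Of the 10 genes, 9 had such a cluster, out of 18417 genes with 1 in all, and EGR2 was not analysed here. The cells were L1236, an established line that was derived from a Hodgkin lymphoma and stems from B cells, and their RNA was measured on 24 Affymetrix arrays (Human Gene 1.0 ST) in 2 experiments. Experiment 1 set p50/RelA KD (knockdown with siRNAs, short RNAs that lead to the degradation of a matching mRNA, against NFKB1, which encodes p50, and RELA) against control 1. Experiment 2 set p52/RelB KD (siRNAs against NFKB2, which encodes p52, and RELB) against control 2. Each of the 4 groups had 6 arrays, made of 2 siRNA sequences in 3 replicates, and both controls received non-targeting siRNA. Per the study's methods, the siRNAs against NFKB1 and RELB were present for 3 days at 1 µM and those against RELA and NFKB2 for 2 days at 500 nM. The siRNAs were taken up without a transfection reagent in a medium with 1% serum, and the usual serum level was restored 1 day before the cells were collected. The study's methods call the replicates of each experiment biological. The arrays of a replicate each received a siRNA set of their own, and all arrays come from 1 cell line, so the p-values measure the spread between separately treated samples of that line.

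Immediate early genes are transcribed within minutes of a stimulus, without new protein synthesis, and their mRNAs are mostly short-lived. Many of them lie downstream of the MAP kinases ERK, JNK and p38, which reach their promoters through factors at the serum response element and through CREB. EGR proteins are zinc finger transcription factors, IER proteins are small regulators of survival and stress responses, and DUSP phosphatases remove the activating phosphates from MAP kinases and so close a feedback loop. In B cells these genes respond to engagement of the B cell receptor, and IER3 is also a long known target of NF-κB.

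The siRNAs are shown because every difference below rests on them. They are given in the order of the study's list, and which of a pair is sequence 1 or sequence 2 of the labels is not stated there.
NFKB1, first: ccaaaguauaaagauauua
NFKB1, second: ggcucauguuuacagcuuu
RELA, first: cuuccaaguuccuauagaa
RELA, second: ggauugaggagaaacguaa
NFKB2, first: ucauugagcagauagucua
NFKB2, second: cugucaagaucuguaacua
RELB, first: guaggauucggaaaagauu
RELB, second: uggagaucaucgacgagua

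The targeted mRNAs fell to 26.5% (NFKB1) and 38.1% (RELA) of control in p50/RelA KD and to 39.4% (NFKB2) and 82.0% (RELB) in p52/RelB KD. Of the mRNAs not targeted, NFKB2 was called lower in p50/RelA KD, at 87.8% of control (limma adjusted p = 0.0457). NFKB1 was called higher in p52/RelB KD, at 111% (limma adjusted p = 0.0374). RELB in p50/RelA KD and RELA in p52/RelB KD were not called. Array medians lay between 6.94 and 6.99 on the log2 scale in experiment 1 and between 7.39 and 7.51 in experiment 2, so levels were compared only within an experiment. The interquartile range of an array's log2 values was 3.64 to 3.79 in experiment 1 and 3.16 to 3.42 in experiment 2. Each knockdown had an experiment of its own, so target and experiment cannot be told apart where the knockdown effects are compared. In experiment 2 the array with sequence 2 of p52/RelB KD in replicate 3 stood apart: its mean correlation with its arm was 0.986, where those of the other arrays were at least 0.993. Control 1 with sequence 2 in replicate 2 had the lowest such value of experiment 1, 0.993. The Hodgkin markers TNFRSF8, IRF4, CCL17, FSCN1, TRAF1 and GATA3 passed the low value filter in both experiments. So did the B cell genes PAX5, POU2AF1, CD79A and CD79B, while MS4A1, which encodes CD20, did not. Of the 6 Hodgkin markers, CCL17 was called lower in p50/RelA KD (log2 difference -0.44 ± 0.04, limma adjusted p = 0.00023) and the other 5 were not called. In p52/RelB KD GATA3 (-0.22 ± 0.04, limma adjusted p = 0.00414) and TRAF1 (-0.23 ± 0.06, limma adjusted p = 0.0326) were called lower, and the other 4 were not called. PAX5 was called higher in p52/RelB KD (log2 difference 0.19 ± 0.04, limma adjusted p = 0.00646). Of the markers of other cell types, 0 of 6 genes tested were called in p50/RelA KD (1 at an unadjusted p below 0.05, and 1 by the methods' t-test) and 1 of 9 in p52/RelB KD (PECAM1, log2 difference 0.19 ± 0.04). The summed log2 values of that list ranged from 86.3 to 87.9 in p50/RelA KD and from 85.2 to 88.0 in control 1, and from 89.8 to 92.2 in p52/RelB KD and from 89.1 to 91.3 in control 2. LYZ and EPCAM were below 6 on all arrays of both experiments. CD8A, NKG7, CSF1R, COL1A1, COL1A2 and PECAM1 passed the filter in both, and CD3D, CD3E and CD14 in experiment 2 alone. PECAM1 cluster 8017599 lay at 12.24 to 12.50 in experiment 1 and 11.86 to 12.29 in experiment 2. The other PECAM1 cluster, 8017619, lay at 6.08 to 6.84 in experiment 1 and 4.59 to 6.12 in experiment 2, where it did not pass the filter. The part of these markers in the results was not tested.

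Each knockdown moved some of the genes. EGR1 and DUSP2 fell in p50/RelA KD, and in p52/RelB KD IER3 fell while EGR1 and DUSP5 rose. A gene is called here at a limma adjusted p (Benjamini-Hochberg over all clusters tested) below 0.05 with a difference of at least 10%. In p50/RelA KD 2 of the 8 genes that passed the low value filter were called, both lower, against 1.07% of all 14672 clusters called either way, 0.825% lower and 0.245% higher. In p52/RelB KD 3 of 9 genes were called, 1 lower and 2 higher, against 9.68% of all 16101 clusters called either way, 5.75% lower and 3.93% higher. These shares count clusters, whereas the members are counted as genes. As the genes were chosen with earlier results of these data known, setting them against the shares is a description and not a test. DUSP4 passed the filter in experiment 2 alone. The median log2 difference over the genes' clusters, IER3 counted with its 3 clusters, was -0.19 in p50/RelA KD, where the median of all clusters was 0.00, and 0.05 in p52/RelB KD, where that of all clusters was 0.02. Differences are given on the log2 scale as KD minus control ± SE (standard error, 6 arrays per arm).

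EGR1, a zinc finger transcription factor that activates and represses growth and differentiation genes, changed in opposite directions. In experiment 1 its lowest, median and highest log2 values were 9.97, 10.12 and 10.51 in p50/RelA KD, against 10.05, 10.38 and 10.85 in control 1. The arms overlapped, and both had their highest 2 values in replicate 2. Within replicates 1, 2 and 3 the differences were -0.12, -0.34 and -0.26, while the control means of the replicates spanned 0.70. With the replicate as a block the difference was -0.24 ± 0.05, or 84.6% of control, with a limma adjusted p of 0.0275. That call was lost in 10 of 15 fits that left out an array or a replicate (limma adjusted p 0.0120 to 0.302), without the block (adjusted p = 0.725) and with both sequences averaged within a replicate (adjusted p = 0.155). In experiment 2 the lowest, median and highest values were 10.50, 10.76 and 10.86 in p52/RelB KD, against 10.18, 10.48 and 10.66 in control 2. Of the 6 KD arrays, 4 lay above the highest control array, and the 2 that did not were those of replicate 3, in which the control arrays were lowest too. EGR1 rose by 0.27 ± 0.05, to 121% of control (limma adjusted p = 0.00382), with differences of 0.31, 0.20 and 0.31 in replicates 1, 2 and 3. The call was lost without replicate 1 (adjusted p = 0.0992) and kept in the other 14 fits of that kind. It was also lost without the replicate block (limma adjusted p = 0.0884) and by the methods' t-test on the values as deposited (adjusted p = 0.154).

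The effect of p52/RelB KD on EGR1 exceeded that of p50/RelA KD by 0.51 ± 0.07 (limma adjusted p = 9.39e-05, all 24 arrays in a single fit), the largest of the 8 genes tested in both experiments. Of the 14647 clusters tested in both experiments, 7 were called lower in p50/RelA KD and higher in p52/RelB KD, or 0.0478%, and EGR1 was 1 of them. The stretch before the start site of EGR1 is shown because it holds the sequences through which the serum response is known to act; the capitals mark the CArG boxes, the CC and GG that frame a run of A and T bound by serum response factor.
EGR1, chr5:138465364-138465415, plus strand, GRCh38.p14 (RefSeq): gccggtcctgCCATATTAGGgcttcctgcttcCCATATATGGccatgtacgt
The 2 boxes lie at bases -105 to -96 and -83 to -74 from the start site. Of 35116 promoter windows of 250 bases, 1.16% held a CArG box on either strand. Among the other genes described, a window of EGR2 held 1, and those of IER2, IER5, DUSP2 and DUSP6 held 0. The core of the CREB site, TGACG, occurred 2 times in the window of EGR1 and in 21.2% of all windows. A window of EGR2 held 2 such cores and that of IER2 held 1, while those of IER5, DUSP2 and DUSP6 held 0. Such matches are descriptions, and binding was not measured in these data.

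**Figure D1:**
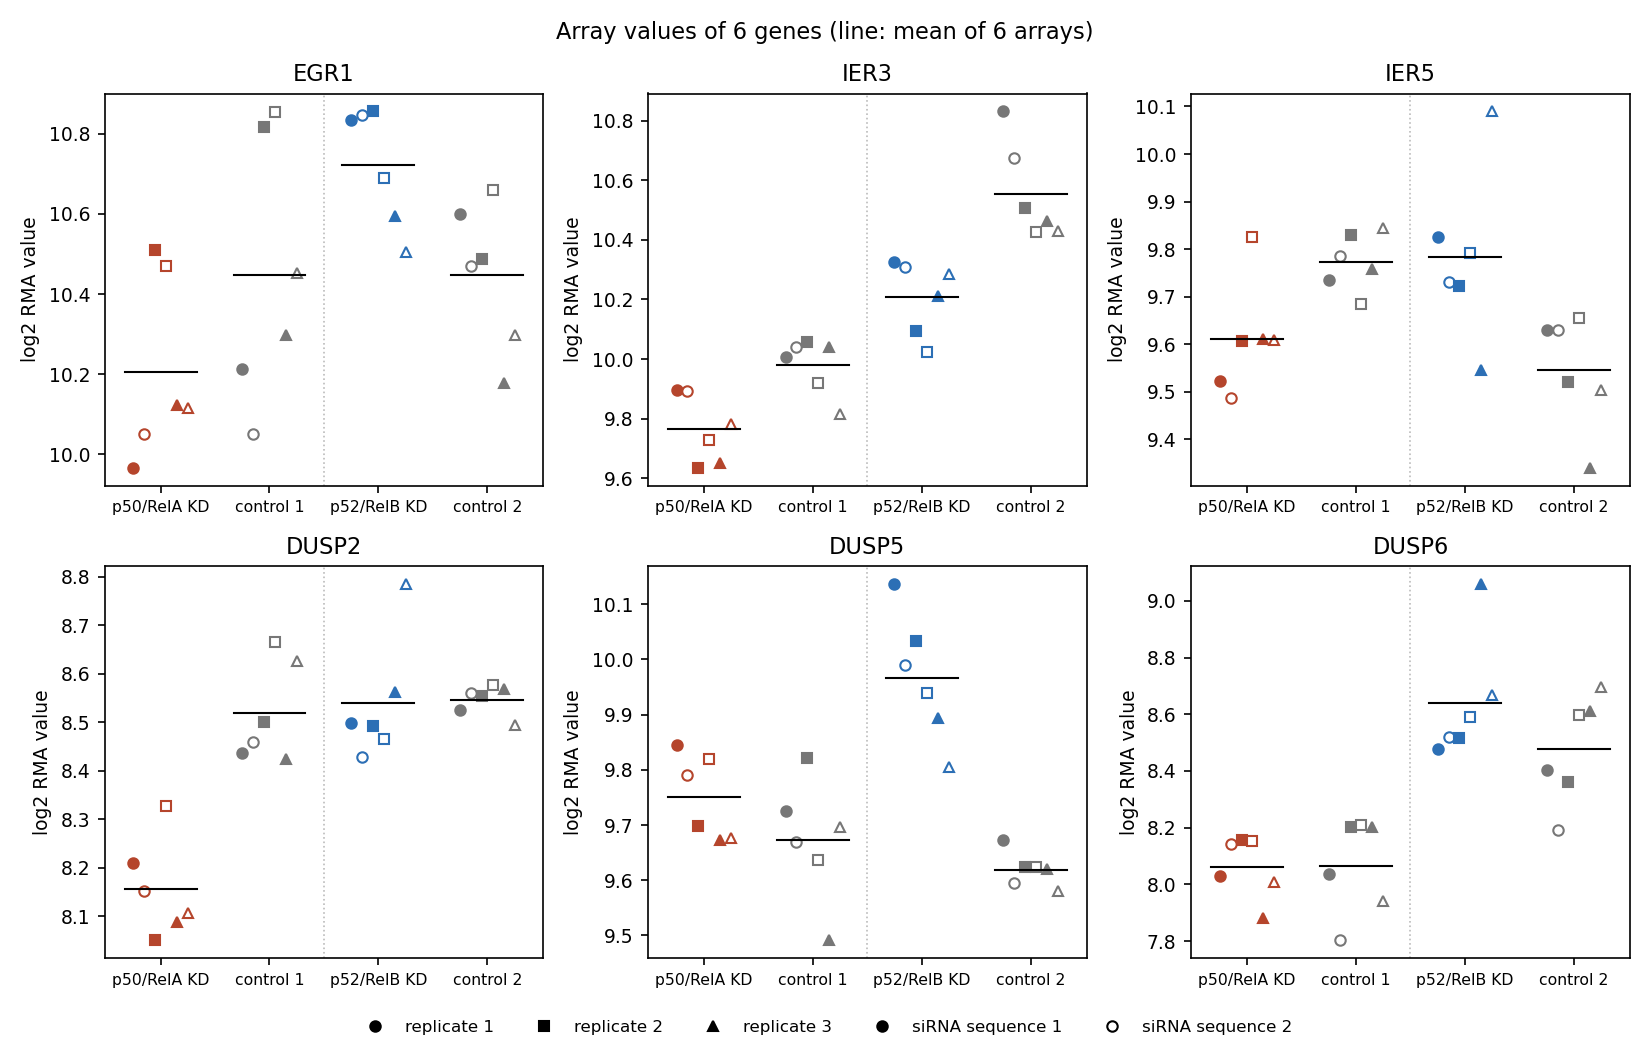
Log2 RMA values (y axis, a scale of its own for each gene) of 6 genes on each array, by group (x axis), with shapes for replicates, filled points for siRNA sequence 1, open points for sequence 2 and a line at the mean of 6 arrays. DUSP2 in p50/RelA KD lies below control 1 on all arrays, and in p52/RelB KD IER3 lies below and DUSP5 above control 2 on all arrays.

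EGR3, a second EGR factor with a role in lymphocyte activation and tolerance, was low in these cells. Its log2 values were 6.41 to 6.58 in p50/RelA KD and 6.38 to 6.63 in control 1, and 6.68 to 6.89 in p52/RelB KD and 6.71 to 6.94 in control 2. The arms overlapped in both experiments. The differences were -0.03 ± 0.05 (95% interval -0.13 to 0.07, limma adjusted p = 0.914) in p50/RelA KD and -0.05 ± 0.05 (95% interval -0.17 to 0.06, adjusted p = 0.583) in p52/RelB KD.

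IER3, also known as IEX-1, modulates apoptosis and ERK signalling, and it was the 1 IER gene called. Its 3 clusters are not independent: those with the identifiers 8124848 and 8179704 held identical values on all 24 arrays, and 8178435 differed from them by up to 0.41. In experiment 2 the lowest, median and highest log2 values of 8124848 were 10.02, 10.25 and 10.33 in p52/RelB KD, against 10.43, 10.48 and 10.83 in control 2. All 6 KD arrays lay below all 6 control arrays, with a gap of 0.10, a pattern shown by 3.17% of all clusters tested. IER3 fell by 0.35 ± 0.05, to 78.6% of control (limma adjusted p = 0.000732). For 8178435 the fall was 0.44 ± 0.05, to 73.9% (adjusted p = 0.000178), and it too had no overlap between the arms. Both were called in all 15 fits that left out an array or a replicate. In p50/RelA KD the lowest, median and highest values of 8124848 were 9.63, 9.76 and 9.90, against 9.81, 10.02 and 10.06 in control 1, and 4 of the 6 KD arrays lay below the lowest control array. The difference was -0.22 ± 0.05 (adjusted p = 0.06), with values of -0.13, -0.31 and -0.21 within replicates 1, 2 and 3, and was not called; for 8178435 it was -0.22 ± 0.06 (adjusted p = 0.0939). The lowest control array was that of sequence 2 in replicate 3, and without it IER3 was called at -0.24 (adjusted p = 0.0313) for 8124848 and -0.26 (adjusted p = 0.0245) for 8178435. The p52/RelB effect minus the p50/RelA effect was -0.13 ± 0.07 (95% interval -0.28 to 0.01, adjusted p = 0.364) and -0.22 ± 0.08 (95% interval -0.38 to -0.06, adjusted p = 0.114) for the 2 sets of values, neither past the threshold.

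IER5, a stress-induced protein that acts on the heat shock factor HSF1, had values of 9.49, 9.61 and 9.83 (lowest, median and highest) in p50/RelA KD, against 9.69, 9.77 and 9.84 in control 1. Of the 6 KD arrays, 5 lay below all control arrays and that of sequence 2 in replicate 2, at 9.83, did not. The difference of -0.16 ± 0.05 was not called (limma adjusted p = 0.179). In experiment 2 the values were 9.54, 9.76 and 10.09 in p52/RelB KD, against 9.34, 9.57 and 9.66 in control 2, with 5 of the 6 KD arrays above all control arrays. The difference of 0.24 ± 0.08 was not called (adjusted p = 0.0983). The highest value belonged to the array that stood apart, sequence 2 in replicate 3, and without it the difference was 0.15 ± 0.04 and called (adjusted p = 0.0173). The effects themselves differed: p52/RelB KD minus p50/RelA KD was 0.40 ± 0.10 (adjusted p = 0.0242), and 0.35 ± 0.06 (adjusted p = 0.00122) without that array and the control 1 array of sequence 2 in replicate 2.

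IER2, a nuclear protein linked to cell motility and growth, was not called in either experiment. Its values were 8.23 to 8.52 in p50/RelA KD and 8.42 to 8.55 in control 1, a difference of -0.09 ± 0.06 (95% interval -0.21 to 0.03, limma adjusted p = 0.638). They were 8.85 to 9.12 in p52/RelB KD and 8.82 to 8.94 in control 2, a difference of 0.05 ± 0.04 (95% interval -0.04 to 0.14, adjusted p = 0.490).

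DUSP2, also called PAC-1, is a nuclear phosphatase of ERK and p38 found mainly in blood cells, and it showed the largest fall of the genes in p50/RelA KD. Its lowest, median and highest log2 values were 8.05, 8.13 and 8.33 in p50/RelA KD, against 8.43, 8.48 and 8.67 in control 1. All 6 KD arrays lay below all 6 control arrays, with a gap of 0.099, as in 0.736% of all clusters tested. DUSP2 fell by 0.36 ± 0.06, to 77.7% of control (limma adjusted p = 0.00691), with differences of -0.27, -0.39 and -0.43 in replicates 1, 2 and 3. It was called in all 12 fits without a single array and in none of the 3 without a replicate (adjusted p 0.0566 to 0.10). In experiment 2 the values were 8.43, 8.50 and 8.79 in p52/RelB KD, against 8.50, 8.56 and 8.58 in control 2, and the difference was -0.01 ± 0.05 (95% interval -0.12 to 0.10, adjusted p = 0.946). Of the 6 KD arrays 3 lay below all control arrays and 1, the array that stood apart, lay above them. Without that array the difference was -0.05 ± 0.03 (adjusted p = 0.278). The p52/RelB effect minus the p50/RelA effect was 0.36 ± 0.08 (adjusted p = 0.00928).

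The stretch before the start site of DUSP2 is shown with that of EGR1 because EGR1 and DUSP2 were the 2 genes called in p50/RelA KD. The capitals mark matches to GCGNGGGCG, the pattern used for the EGR site, searched on both strands. Its N was allowed to be any base, and it was C in the match of EGR1 and G and C in those of DUSP2.
DUSP2, chr2:96145515-96145553, minus strand, GRCh38.p14 (RefSeq): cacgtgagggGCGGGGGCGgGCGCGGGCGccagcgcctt
EGR1, chr5:138465271-138465299, plus strand, GRCh38.p14 (RefSeq): tgggatgcggGCGCGGGCGcgggccctag
The window of DUSP2 held 2 such matches, at -103 to -95 and -93 to -85, and that of EGR1 held 1, at -198 to -190. The windows of EGR2, IER2, IER5 and DUSP6 held 0. Of all 35116 windows, 8.41% held a match. Binding to these stretches was not measured, and a link between EGR1 and the fall of DUSP2 was not tested. Of the 10 genes 6 matched an entry of the promoter table, and IER3, EGR3, DUSP4 and DUSP5 did not.

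DUSP5, a nuclear phosphatase specific for ERK, showed the largest rise of the genes. Its lowest, median and highest log2 values were 9.80, 9.96 and 10.14 in p52/RelB KD, against 9.58, 9.62 and 9.67 in control 2. All 6 KD arrays lay above all 6 control arrays, with a gap of 0.13, as in 2.10% of all clusters tested. DUSP5 rose by 0.35 ± 0.04, to 127% of control (limma adjusted p = 0.000382), with differences of 0.43, 0.36 and 0.25 in replicates 1, 2 and 3, and was called in all 15 fits without an array or a replicate. The control arrays were close to each other (SD 0.03, n = 6) and the KD arrays less so (SD 0.12, n = 6). In p50/RelA KD the values were 9.67, 9.74 and 9.84, against 9.49, 9.68 and 9.82 in control 1, and the arms overlapped. The difference was 0.08 ± 0.05 (95% interval -0.02 to 0.18, adjusted p = 0.642), positive in 3 of 3 replicates. The p52/RelB effect exceeded the p50/RelA effect by 0.27 ± 0.06 (adjusted p = 0.0159).

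DUSP4, a nuclear phosphatase of ERK and JNK, lay at 5.29 to 5.39 in p50/RelA KD and 5.26 to 5.52 in control 1, below the limit of 6 on all 12 arrays, and was not tested there. In experiment 2 it lay at 5.98 to 6.45 in p52/RelB KD and 5.98 to 6.27 in control 2, close to that limit, with a difference of 0.08 ± 0.06 (95% interval -0.06 to 0.23, limma adjusted p = 0.476).

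DUSP6, the cytoplasmic phosphatase of ERK and a common gauge of ERK output, had lowest, median and highest values of 7.88, 8.09 and 8.16 in p50/RelA KD, against 7.80, 8.12 and 8.21 in control 1. The difference was -0.00 ± 0.06 (95% interval -0.14 to 0.13, limma adjusted p = 0.991), and its sign differed between replicates. In experiment 2 the values were 8.48, 8.55 and 9.06 in p52/RelB KD, against 8.19, 8.50 and 8.70 in control 2. The value of 9.06 belonged to sequence 1 in replicate 3, and the next highest KD array had 8.67. The difference of 0.16 ± 0.07 (95% interval 0.01 to 0.31) was positive in 3 of 3 replicates and not called (adjusted p = 0.189). Without the array with 9.06 the difference was 0.107 ± 0.06 and not called (adjusted p = 0.264), while without the array that stood apart, sequence 2 in replicate 3, it was 0.205 ± 0.06 and called (adjusted p = 0.0314).

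**Figure D2:**
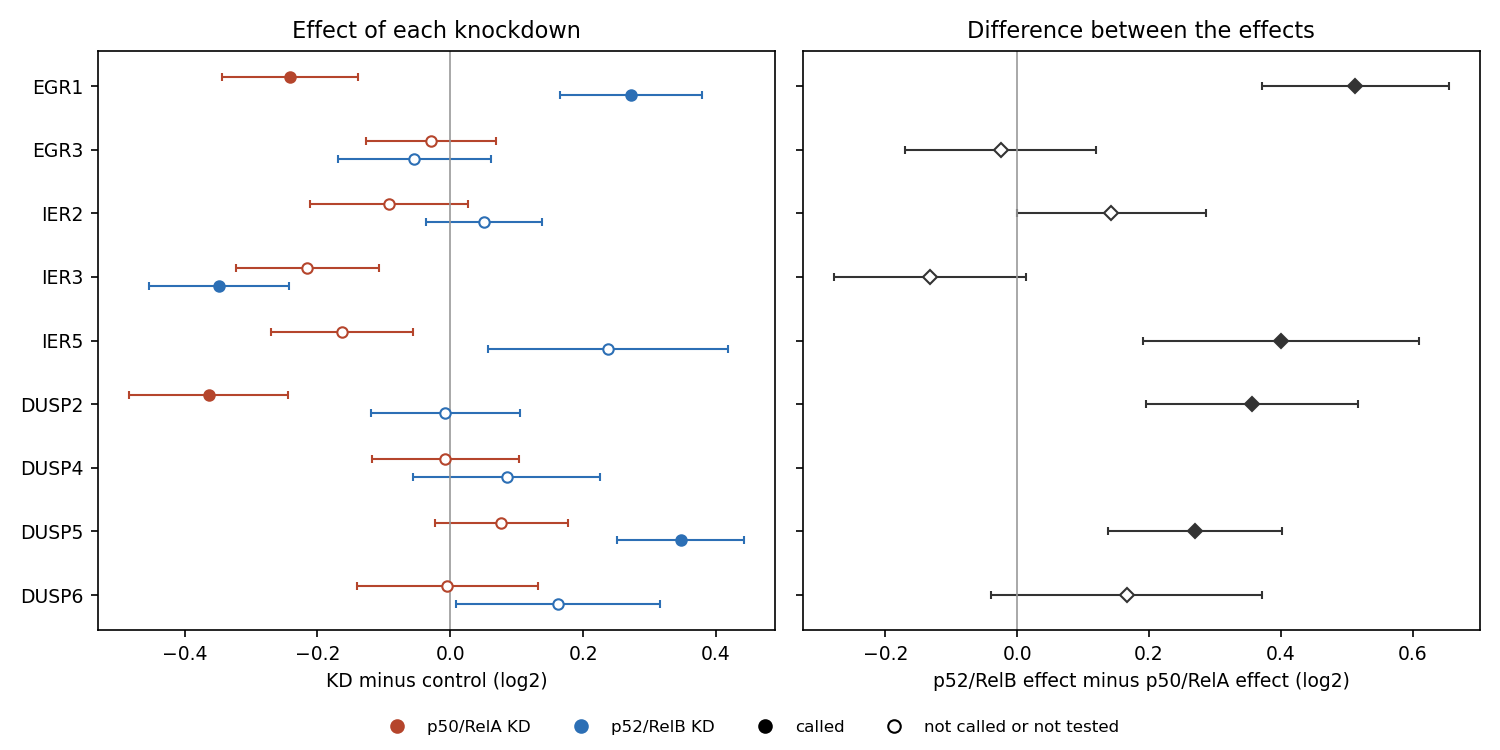
Log2 differences of 9 genes (rows) with 95% confidence intervals. The left panel shows KD minus control in each experiment and the right panel the p52/RelB effect minus the p50/RelA effect, filled where called. EGR1 lies on opposite sides of 0 in the 2 experiments, and the intervals of EGR1, IER5, DUSP2 and DUSP5 in the right panel lie above 0.

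Of the 8 genes tested in both experiments, 4 differed between the knockdowns, EGR1, IER5, DUSP2 and DUSP5, all with the higher value for p52/RelB KD, against 4.35% of all clusters called either way and 1.90% called in that direction. The genes were chosen with earlier results of these data known. Target and experiment cannot be told apart here, as each knockdown had an experiment of its own. These 4 differences came about in different ways, as the values of each knockdown above show: EGR1 was called in both, DUSP2 in p50/RelA KD alone, DUSP5 in p52/RelB KD alone and IER5 in neither. The other differences were 0.17 ± 0.10 for DUSP6 (limma adjusted p = 0.435), 0.14 ± 0.07 for IER2 (adjusted p = 0.302) and -0.03 ± 0.07 for EGR3 (adjusted p = 0.911). The call of EGR1 held in all 6 fits that left out a replicate of an experiment and was lost without the replicate block (adjusted p = 0.153). DUSP2 kept its call in 5 of these 6 fits, and DUSP5 and IER5 in 2 each.

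**Figure D3:**
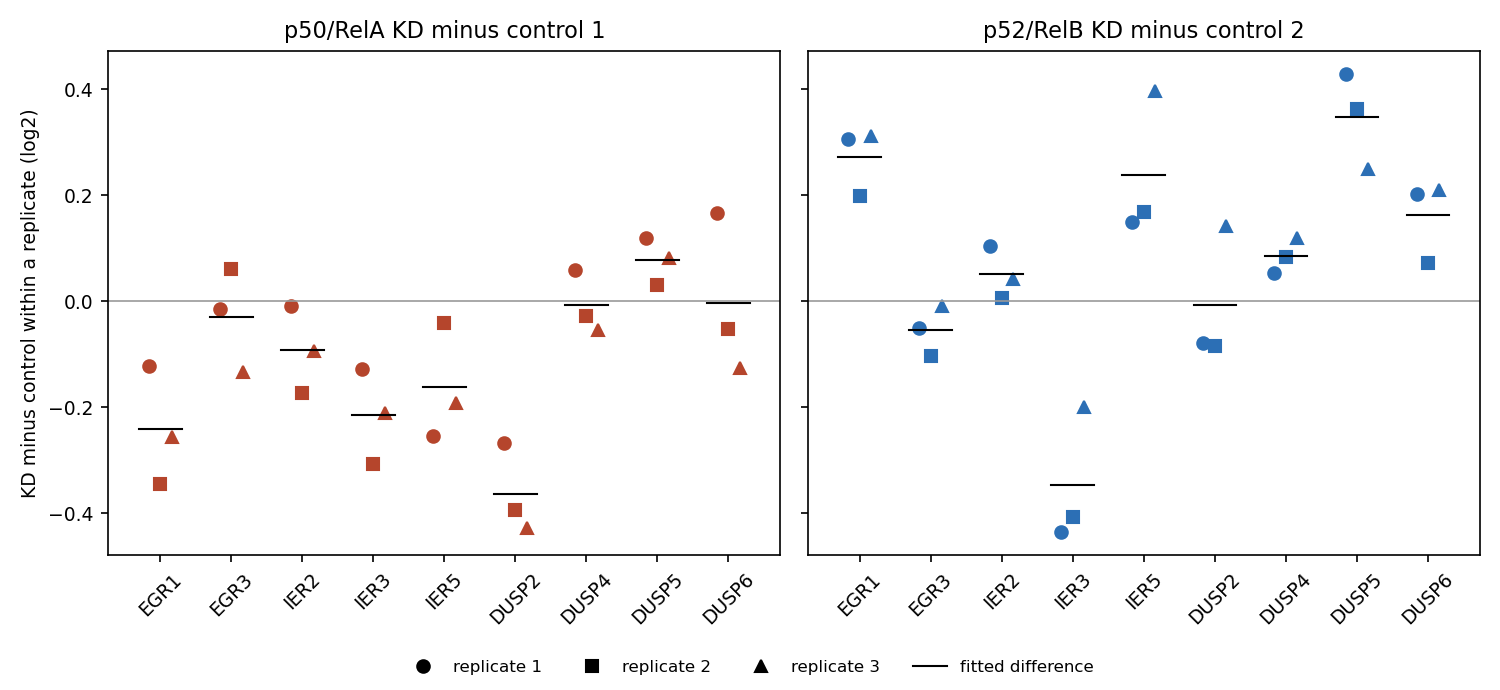
KD minus control (log2, y axis) within each replicate for 9 genes (x axis), by experiment, with shapes for replicates and a line at the fitted difference. EGR1, IER3, IER5, IER2 and DUSP2 were lower in all 3 replicates of p50/RelA KD, and DUSP5 was higher in all 3. In p52/RelB KD EGR1, IER5, IER2, DUSP4, DUSP5 and DUSP6 were higher in all 3 replicates, and IER3 and EGR3 lower in all 3.

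Replicates coincide with scan batches in experiment 1, so the differences within replicates are also those within batches 1, 2 and 3. In experiment 2 replicate 3 formed batch 4, and replicates 1 and 2 formed batch 5. Within batch 5 (4 arrays per arm) DUSP5 differed by 0.40 ± 0.04 (limma adjusted p = 0.000324), IER3 by -0.42 ± 0.04 (0.000186) and EGR1 by 0.25 ± 0.05 (0.0129). IER5 was called there as well, at 0.16 ± 0.04 (0.0301). Within batch 4, which held 2 arrays per arm, the same 4 genes differed by 0.25, -0.20, 0.31 and 0.40, and 0 clusters of the whole array were called by limma. DUSP2 had opposite signs in the 2 batches, -0.08 ± 0.03 in batch 5 and 0.14 in batch 4.

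Both siRNA sequences moved the called genes in the same direction. In p52/RelB KD sequence 1 and sequence 2, each with 3 arrays and set against all 6 control arrays, moved DUSP5 by 0.40 ± 0.05 and 0.29 ± 0.05, IER3 by -0.35 ± 0.06 and -0.35 ± 0.06, and EGR1 by 0.31 ± 0.06 and 0.23 ± 0.06. All 6 of these were called (limma adjusted p 0.00140 to 0.0487), against 5.36% of clusters for sequence 1 and 6.53% for sequence 2. In p50/RelA KD DUSP2 moved by -0.40 ± 0.06 with sequence 1 (adjusted p = 0.0262) and by -0.32 ± 0.06 with sequence 2 (adjusted p = 0.108), and EGR1 by -0.25 ± 0.06 (adjusted p = 0.183) and -0.24 ± 0.06 (adjusted p = 0.311), against 0.327% and 0.191% of clusters called.

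Sequence 1 minus sequence 2 was not called for any of the genes in either knockdown, or for any other cluster (0 of 14672 and 0 of 16101 by limma, with 514 and 1536 at an unadjusted p below 0.05). The intervals leave room for differences between sequences: that of EGR1 ran from -0.17 to 0.15 in p50/RelA KD and from -0.07 to 0.24 in p52/RelB KD, and that of DUSP5 from -0.02 to 0.24 in p52/RelB KD. The 1 member with an unadjusted p below 0.05 was IER2 in p50/RelA KD. Its arrays had 8.40, 8.24 and 8.23 with sequence 1 and 8.52, 8.44 and 8.51 with sequence 2, against 8.42 to 8.55 in control 1, so the sequence 1 arrays were the 3 that lay below all control arrays. Sequence 1 minus sequence 2 was -0.20 ± 0.06 (limma adjusted p = 0.999). IER5 and DUSP4 in p52/RelB KD were higher with sequence 2, by differences of -0.17 ± 0.11 and -0.17 ± 0.08 for sequence 1 minus sequence 2, which were not called.

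**Figure D4:**
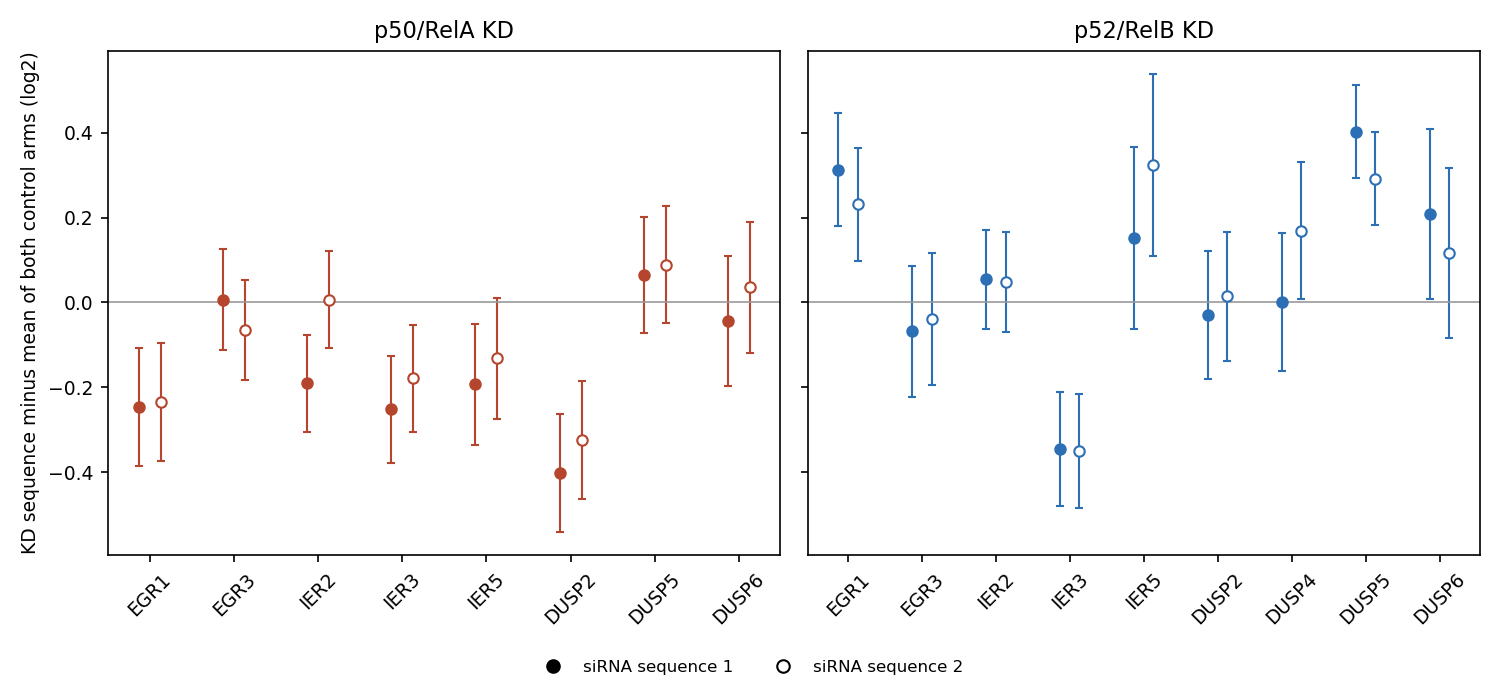
Log2 difference of each KD siRNA sequence (3 arrays) from the mean of both control arms (y axis) with 95% confidence intervals, for the genes tested in each experiment (x axis). Filled points are sequence 1 and open points sequence 2; for EGR1, IER3, DUSP2 and DUSP5 both points lie on the same side of 0 in the experiment in which the gene was called.

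Genes around these families were counted from lists, to be read against the 1.07% of all clusters called in p50/RelA KD and the 9.68% called in p52/RelB KD. The lists, too, were chosen with earlier results of these data known. Among other immediate early genes, 3 of 22 tested fell in p50/RelA KD and 0 rose: TNFAIP3 (-0.45 ± 0.04) and NFKBIA (-0.40 ± 0.04), which encode the NF-κB inhibitors A20 and IκBα, and JUN (-0.27 ± 0.05), an AP-1 subunit. In p52/RelB KD 2 of 23 fell, TNFAIP3 (-0.35 ± 0.07) and ZFP36L1 (-0.21 ± 0.06), an mRNA decay factor, and 2 rose, FOS (0.30 ± 0.06), the partner of JUN in AP-1, and NR4A3 (0.26 ± 0.04), an orphan nuclear receptor. The medians of this list were -0.09 and -0.02. EGR4, the EGR corepressors NAB1 and NAB2, and IER5L gave 0 of 4 calls in both knockdowns by limma and by the methods' t-test, with 0 and 2 at an unadjusted p below 0.05.

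Among the kinases on which the DUSP phosphatases act is ERK. Of 11 ERK feedback and output genes tested in p52/RelB KD, ETV5 (0.30 ± 0.09), an ETS factor induced by ERK, and SPRED1 (0.29 ± 0.06) and SPRED2 (0.20 ± 0.04), inhibitors of RAF activation, rose, while SPRY1 (-0.32 ± 0.09), another inhibitor of the pathway, fell. The count in p50/RelA KD was 0 of 9 by limma, with 2 at an unadjusted p below 0.05 and 1 call by the methods' t-test. Of 12 genes of the kinase cascade itself, 1 was called in p50/RelA KD and 2 in p52/RelB KD. MAP2K1, a kinase that activates ERK, fell by 0.18 ± 0.04 in p50/RelA KD and by 0.30 ± 0.05 in p52/RelB KD, where RPS6KA1, a kinase downstream of ERK, fell as well (-0.22 ± 0.04).

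Of 9 other DUSP phosphatases, DUSP16, which acts on JNK and p38, fell in p52/RelB KD (-0.21 ± 0.04), and 0 were called in p50/RelA KD by limma or the methods' t-test (2 at an unadjusted p below 0.05). Among 10 genes of the JNK and p38 branches, GADD45B, an activator of p38 signalling, fell in p50/RelA KD (-0.19 ± 0.03) and in p52/RelB KD (-0.22 ± 0.06), and MAP3K5, the kinase ASK1, rose in p52/RelB KD (0.22 ± 0.04). SRF and the factors ELK1, ELK3 and ELK4, which bind the serum response element, and MRTFB, a coactivator of SRF, gave 0 of 5 calls in both knockdowns by limma and by the methods' t-test, and 0 at an unadjusted p below 0.05.

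Over the 24 arrays, after each replicate of each experiment was centred on its mean, the clusters most like EGR1 were TESC (Pearson r = 0.913), CD44 (0.890) and SNX11 (0.889). Those most like IER3 were GABBR1 with 2 clusters (0.930 and 0.925) and ZBTB32 (0.918), and those most like DUSP6 were POLR1E (0.828), MRM3 (0.818) and MPHOSPH10 (0.817). Among the genes themselves IER3 and DUSP5 ran opposite to each other (r = -0.784), and EGR1 was correlated with IER5, DUSP6, DUSP5, DUSP2 and IER2 at 0.543, 0.538, 0.534, 0.525 and 0.510. The cluster most like DUSP2 was RELA (0.896), a target of the siRNAs, picked out after the values were seen. These correlations are descriptions over arrays that share the knockdowns, the replicates and the normalization.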

How the data were processed

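Total RNA was measured on 24 arrays. The values deposited by the authors are on the log2 scale and come from RMA (background correction, quantile normalization and a summary per transcript cluster). Arrays have no read depth; precision is set by their number (median SE of a KD effect 0.0476 in experiment 1 and 0.0536 in experiment 2). Per the study's methods values were adjusted for covariates that are not named before its tests. Of 33297 clusters, 19460 had 1 symbol in the platform annotation and 1754 had several; symbols were updated through the RefSeq table of GRCh38.p14. Clusters with 1 symbol were tested unless below 6 in 50% or more of an experiment's 12 arrays.

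KD and control were compared with limma 3.58.1 (R 4.3.3) and a block per replicate, and the effects of both KDs in 1 fit with a block per experiment and replicate. Replicate numbers were taken to pair the arrays. The deviations of same-numbered KD and control arrays correlated at 0.195 to 0.574, above 0.1 in all 6 pairs. Arrays with different replicate numbers were not compared in this way. In experiment 1 the replicates coincide with scan batches, so pairing of the cultures and a shared batch cannot be told apart. The methods' t-test names the study's own test, run here on the values as deposited and with replicate means removed. The limma fits of each KD effect and of their difference were tested on simulated data. All genes listed were named, with up to 4 called genes of each other list and the 3 clusters most like EGR1, IER3 and DUSP6. The genes and lists were chosen with earlier results of these data known. Alternatives covered the block, filter, normalization, test, siRNA sequence, scan batch and arrays left out. Of the genes, 5 measured ones and EGR2 had promoter windows in the RefSeq table, of which the 250 bases before the start site were searched. Figures were drawn with matplotlib.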

Additional observations from a re-analysis of the deposited data

Results flagged for a closer look

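Within a group of 6 arrays, 5 sets of values had an end value whose gap to the nearest other array exceeded Dixon's 95% critical share of the range, among 40 sets checked (10 clusters in 4 groups), where chance gives about 5%. IER3 cluster 8178435 had 9.92 in control 1 with sequence 2 in replicate 3, where the other control 1 arrays had 10.14 to 10.25. IER5 had 9.825 in p50/RelA KD with sequence 2 in replicate 2, where the other KD arrays had 9.49 to 9.61. IER2 had 8.815 in control 2 with sequence 1 in replicate 2, where the others had 8.92 to 8.94. DUSP2 had 8.79 in p52/RelB KD with sequence 2 in replicate 3, the array that stood apart, where the others had 8.43 to 8.56. DUSP6 had 9.06 in p52/RelB KD with sequence 1 in replicate 3, where the others had 8.48 to 8.67.

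The knockdown effects of 4 genes differed by the test of the difference itself, in which target and experiment cannot be told apart. The p52/RelB effect minus the p50/RelA effect was 0.51 for EGR1, 0.40 for IER5, 0.36 for DUSP2 and 0.27 for DUSP5.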

How the results depend on the processing

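The arrays were paired by replicate in the fits reported. Without the replicate block, members called were 1 of 2 in p50/RelA KD (EGR1 lost, adjusted p = 0.725) and 2 of 4 for the difference between the effects (EGR1 and DUSP5 lost, adjusted p = 0.153 and 0.0627), all clusters called were 59 against 157 in p50/RelA KD, 880 against 1559 in p52/RelB KD and 250 against 637 for the difference, and EGR1 in p52/RelB KD had an adjusted p of 0.0884. Without the low value filter p50/RelA KD had 1 member and 103 clusters called, with EGR1 at an adjusted p of 0.0514. The methods' t-test on values as deposited called 30 clusters and 1 member (DUSP2) in p50/RelA KD and 725 clusters and 2 members (IER3 and DUSP5) in p52/RelB KD; with replicate means removed it called 276 clusters in p50/RelA KD, IER3 among them (adjusted p = 0.0387). IER3 was also called there with clusters of mean 7 or more (adjusted p = 0.0382). With both sequences averaged within a replicate, 1 member (DUSP2) and 45 clusters were called in p50/RelA KD and 632 clusters in p52/RelB KD.

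Settings with few arrays differed in what they called. In p50/RelA KD, scan batches 1, 2 and 3 called 4, 1 and 0 clusters and 0 members, sequence 1 arrays alone 37 clusters and 0 members, and sequence 2 arrays alone 3 clusters and 0 members. In p52/RelB KD, scan batch 4 called 0 clusters and 0 members, scan batch 5 called 2047 clusters and 4 members, sequence 1 arrays alone 1177 clusters and 4 members (EGR1, IER3, IER5 and DUSP5), and sequence 2 arrays alone 5 clusters and 0 members. Leaving out an array or a replicate gave 0 to 3 members and 18 to 193 clusters called in p50/RelA KD, and 2 to 5 members and 443 to 2309 clusters in p52/RelB KD. Leaving out a replicate of an experiment gave 1 to 4 members and 217 to 554 clusters for the difference between the effects, and leaving out the 2 outlying arrays, an alternative chosen after seeing the data, gave 957 clusters and the same 4 members. Testing clusters with several symbols too, likewise chosen after seeing the data, called 182 and 1764 clusters and the same 2 and 3 members.

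Signs turned only for differences that were not called. DUSP6 in p50/RelA KD was 0.014 after quantile normalization, 0.17 within scan batch 1, 0.12 with sequence 2 arrays alone and -0.089 to 0.057 with an array or replicate left out. EGR3 in p50/RelA KD was 0.061 within scan batch 2 and -0.074 to 0.023 with arrays left out, and IER2 was 0.031 with sequence 2 arrays alone. In p52/RelB KD, DUSP2 was 0.0086 after quantile normalization, 0.14 within scan batch 4, 0.017 with sequence 2 arrays alone and -0.082 to 0.031 with arrays left out, and DUSP4 was -0.013 with sequence 1 arrays alone. The difference between the effects for EGR3 was -0.077 to 0.020 with replicates left out. The settings with fewer arrays have fewer arrays by construction; the cause of the other changes was not tested.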
